A study of Sus scrofa with 8 samples.

Results

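The 6 actin isoform genes of pig limb muscle were followed across normal development and across loss of the factors that found the muscle lineage. The members were the rows of the count table whose gene identifier carries the symbol ACTA1, ACTC1, ACTA2, ACTG2, ACTB or ACTG1. All 6 were found, 1 row each, among 22516 genes in the table, and all 6 passed the low-count filter that left 17020 genes for testing. The groups were wild-type pig embryos (WT) and triple knockouts (KO) for MYF5, MYOD1 and MYF6, the muscle-lineage factors, each sampled on embryonic days 41 (E41) and 62 (E62), with 2 libraries in each of the 4 groups. The sample labels call the later stage E62, whereas the growth protocol says day 60. The series title speaks of a knockdown, whereas every sample label says knockout, and the sources used here do not say how it was made. The sample titles call the replicates biological, and the library names of KO at E62 carry a different embryo number each. For the other groups the labels do not state the embryo. The p-values reflect the spread between libraries of the same group, pooled over all 4 groups and shared in part across genes. They do not rest on the libraries of the compared groups alone.

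Actins are the monomers of the thin filament of muscle and of the microfilaments of every cell. In birds and mammals the family has a pair of striated-muscle isoforms, a pair of smooth-muscle isoforms and a pair of cytoplasmic isoforms, whose proteins are nearly identical and whose transcripts differ mainly outside the coding region. Skeletal muscle is known to start with much cardiac actin, ACTC1, and to move towards skeletal actin, ACTA1, as it matures, while the cytoplasmic isoforms ACTB and ACTG1 recede.

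ACTA1 (ENSSSCG00000010190, chr14:60412651-60415687) encodes skeletal muscle alpha actin. ACTC1 (ENSSSCG00000004803, chr1:136281119-136286551) encodes cardiac alpha actin. ACTA2 (ENSSSCG00000010447, chr14:100868145-100886732) encodes the alpha actin of vascular smooth muscle, and ACTG2 (ENSSSCG00000008294, chr3:69097366-69121542) the gamma actin of visceral smooth muscle. ACTB (ENSSSCG00000007585, chr3:4084275-4090383) and ACTG1 (ENSSSCG00000028355, chr12:1320355-1323219) encode cytoplasmic beta and gamma actin. Positions are gene spans in RefSeq's annotation of Sscrofa11.1, matched by symbol.

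Library totals ranged from 23402052 to 60539245 counts. MYF5 and MYF6 had 0 counts in the 4 KO libraries and MYOD1 20 to 88, against 1503 to 5715 MYOD1 counts in WT. Replicates of KO at E62 had the lowest correlation of any replicate pair (Pearson's r of log2 CPM 0.967, across genes). Library names hold a different number for each group, so a litter or batch cannot be told apart from the group. Those of WT at E41 also carry another limb code than the rest. The limb therefore cannot be told apart from genotype at E41, from stage in WT or from the difference between stages. The 8 skeletal muscle markers found of 12 listed summed to between 13273 and 31289 CPM in WT and between 7.81 and 10.6 CPM in KO, so the tissue labelled limb muscle nearly lacked them in KO. Fibroblast markers summed to between 24994 and 52983 CPM in WT and between 52295 and 105136 in KO. In bulk tissue, fewer cells of a type and less RNA per cell cannot be told apart. CPM here is a count rescaled to a common library total after TMM, which aligns libraries on the bulk of their genes. Transcript lengths were not used here, so isoforms are compared with themselves across groups and not ranked against each other.

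Summed over the 6 isoforms, actin made up 1.19% and 1.29% of all counts in the WT libraries at E41 and 1.68% and 2.0% at E62. In KO it made up 0.458% and 0.445% at E41 and 0.445% and 0.396% at E62. In CPM, the sum was 13951 ± 641 in WT and 4146 ± 37.3 in KO at E41, and 20149 ± 2917 and 3723 ± 350 at E62 (mean ± SD, n = 2). Each KO library therefore lay below each WT library, at both stages.

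**Figure D1:**
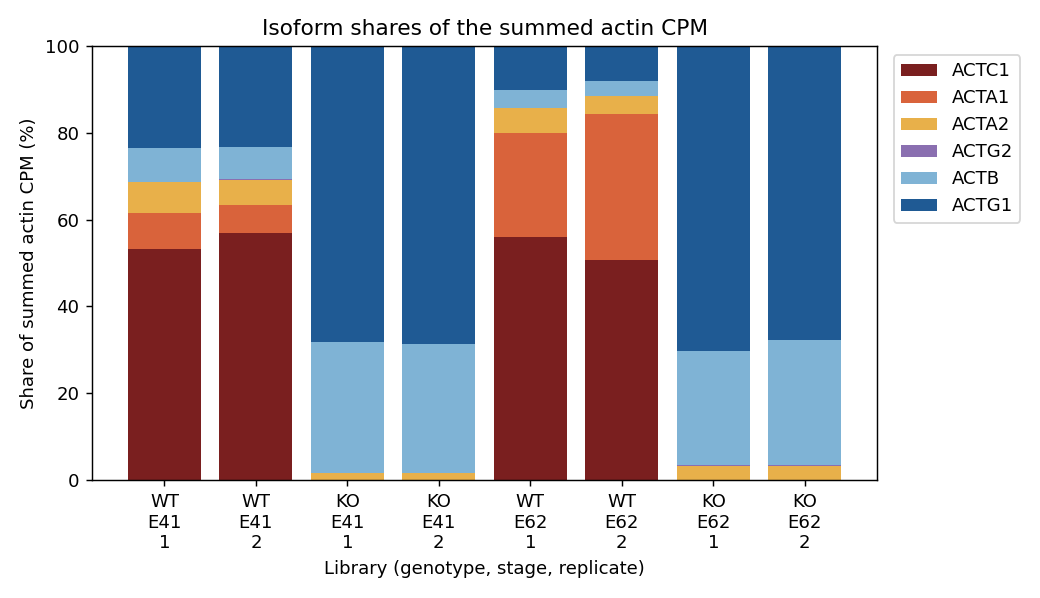
Share of each isoform in the summed actin CPM of a library (vertical axis, %), with 1 stacked bar for each of the 8 libraries. ACTC1 and ACTA1 fill 61.4% to 84.4% of the WT bars, and ACTB and ACTG1 96.6% to 98.3% of the KO bars.

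The make-up of the actin pool also differed. Shares within a library do not depend on the scaling between libraries. ACTC1 and ACTA1 together took 61.4% and 63.5% of actin counts in WT at E41 and 79.9% and 84.4% at E62. In KO they took 0.0222% and 0.0153% at E41 and 0.0123% and 0.00672% at E62. ACTB and ACTG1 together took 31.3% and 30.7% in WT at E41 and 14.4% and 11.5% at E62, but 98.3% in both KO libraries at E41 and 96.6% in both at E62. The smooth-muscle pair took 7.23% and 5.79% in WT at E41, 5.69% and 4.05% in WT at E62, 1.66% and 1.67% in KO at E41, and 3.42% and 3.44% in KO at E62. No group of libraries overlapped with the other genotype at the same stage in any of these 3 sums. With 2 libraries against 2, an exact permutation test cannot go below p = 0.33 (two-sided), so shares are given without a test.

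At E41, 3 of the 6 isoforms differed between genotypes by edgeR's quasi-likelihood test (Benjamini-Hochberg adjusted p under 0.05 over all genes), and all 3 were lower in KO. Among all genes tested, 39.2% were called in either direction and 20.8% as lower. At E62, 5 of the 6 were called, 3 lower and 2 higher, where 47.2% of all genes were called, 26.2% as lower and 21.0% as higher.

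**Figure D2:**
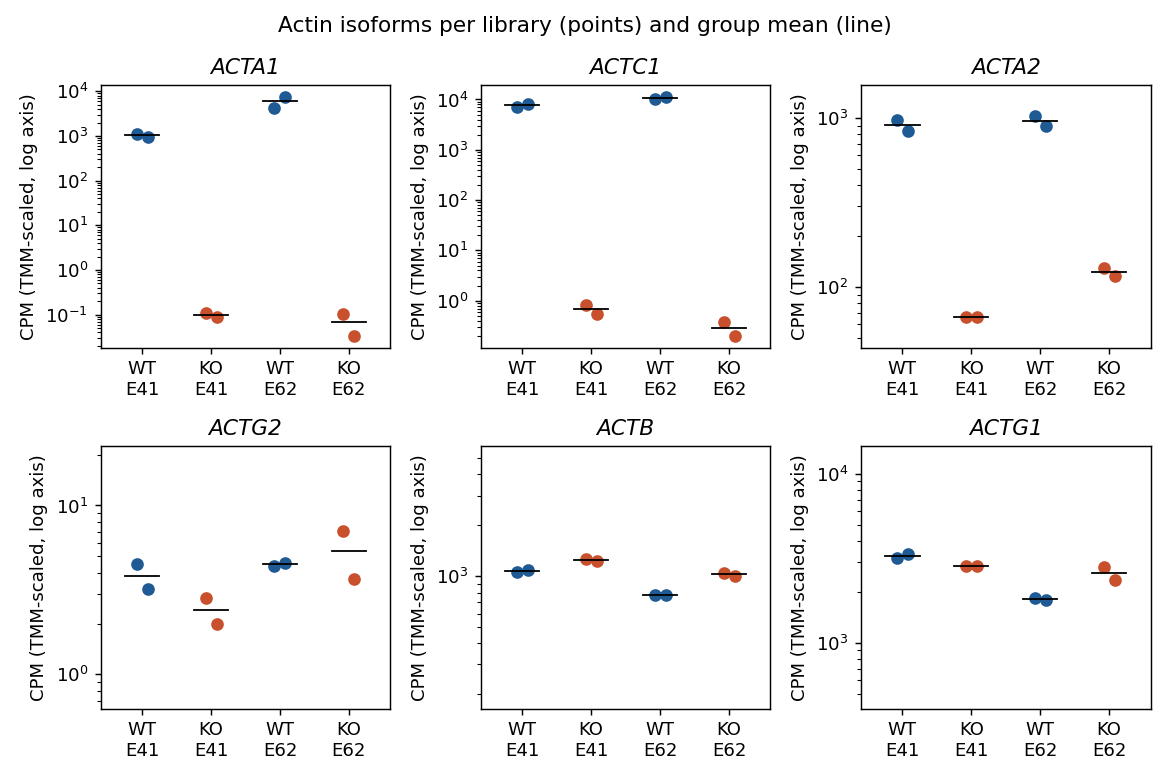
TMM-scaled CPM of each actin isoform (vertical axis, log scale) in every library, with 2 points and a line at their mean for each group. ACTA1 and ACTC1 stand between 943 and 11260 CPM in WT and below 1 CPM in KO, while ACTB and ACTG1 stay within 772 to 3337 CPM in every library.

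Skeletal actin ACTA1 had 22851 and 21330 counts in WT at E41 and 143791 and 254473 at E62. In KO it had 5 and 4 counts at E41 and 7 and 2 at E62. Its level was 1104 and 943 CPM in WT at E41, 4324 and 7493 CPM in WT at E62, and at most 0.11 CPM in any KO library. The groups did not overlap, and KO libraries were near 0 at both stages. ACTA1 was 10486-fold lower in KO at E41 (95% interval 5523 to 22934, counting error only) and 84089-fold lower at E62 (44296 to 183897). The edgeR log2 changes were -13.32 ± 0.49 (adjusted p = 2.6e-06) and -16.30 ± 0.52 (adjusted p = 7.1e-07), with ± for the standard error here and for all log2 changes.

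Cardiac actin ACTC1 had 148782 and 185359 counts in WT at E41 and 336925 and 382394 at E62. In KO it had 38 and 25 counts at E41 and 26 and 12 at E62. In CPM, WT stood at 7186 and 8199 at E41 and at 10132 and 11260 at E62, and KO between 0.20 and 0.82. ACTC1 was 11330-fold lower in KO at E41 (95% interval 8855 to 14744, counting error only) and 35971-fold lower at E62 (26206 to 50831). By edgeR, the log2 changes were -13.46 ± 0.36 (adjusted p = 2.2e-07) and, at the later stage, -15.13 ± 0.38 (adjusted p = 1.1e-07).

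Both striated isoforms were thus nearly absent from KO, although ACTB and ACTG1 transcripts remained abundant there. In KO libraries the striated pair held between 0.672 and 2.22 counts for every 10000 counts of the other 4 isoforms there. Whether reads of the striated isoforms were assigned to the other isoforms in WT was not tested. Heart markers were read beside ACTC1: 8 of 9 listed were found, and their summed level was 624 to 881 CPM in WT and 2.76 to 7.86 CPM in KO. Most of that sum was TNNT2, a cardiac troponin T that embryonic skeletal muscle also uses, at 666 ± 80.3 CPM in WT at E41 and 769 ± 91.2 at E62 (SD, n = 2). The defining heart genes NPPA, NPPB and NKX2-5 were at or near 0, with group means of at most 0.157 CPM. Of the other listed heart genes, MYH6, MYBPC3 and TNNI3 were present in WT at both stages. MYH6, the alpha myosin heavy chain of the heart, stood at 11.8 CPM in WT at E41 and 39.9 at E62, and was lower in KO by -3.44 ± 0.29 and -5.95 ± 0.31 on the log2 scale (edgeR adjusted p = 0.00015 and 6.7e-06). MYBPC3, the cardiac myosin-binding protein, stood at 0.941 and 3.19 CPM in WT and was lower in KO by -2.96 ± 0.47 and -2.53 ± 0.40 (adjusted p = 0.0023 and 0.0016). TNNI3, cardiac troponin I, stood at 3.35 and 3.24 CPM in WT, with changes of -1.77 ± 0.54 (adjusted p = 0.035) and 0.28 ± 0.51 (adjusted p = 0.67). TBX20, also listed, had 5 and 13 counts in WT and 34 and 40 in KO at E41. At E62 it had 0 and 0 counts in WT and 7 and 0 in KO. Its log2 changes were above 0, at 0.96 ± 0.95 (edgeR adjusted p = 0.46) and 4.22 ± 2.44 (adjusted p = 0.19). The part of heart cells in the ACTC1 level was not tested.

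With stage, the striated isoforms of WT moved unequally. ACTA1 rose 5.77-fold from E41 to E62 (log2 change 2.53 ± 0.28, edgeR adjusted p = 0.00085), and its 2 libraries at E62 lay above both at E41. ACTC1 changed by 0.48 ± 0.21 (95% interval -0.02 to 0.97), which did not pass (adjusted p = 0.11). That value passed with DESeq2 (0.0011) and limma-voom (0.031), within a range of 0.0011 to 0.24 over alternatives. ACTA1 counts per ACTC1 count were 0.154 and 0.115 at E41 and 0.427 and 0.665 at E62, with no overlap between stages. The ACTA1 share of actin went from 7.36% ± 1.15 to 28.8% ± 6.95 (SD, n = 2), while that of ACTC1 was 55.1% ± 2.60 and 53.4% ± 3.77, with overlapping libraries. In WT, 3 of 6 isoforms changed with stage, 1 higher and 2 lower, where 39.8% of all genes did and 19.8% rose.

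**Figure D3:**
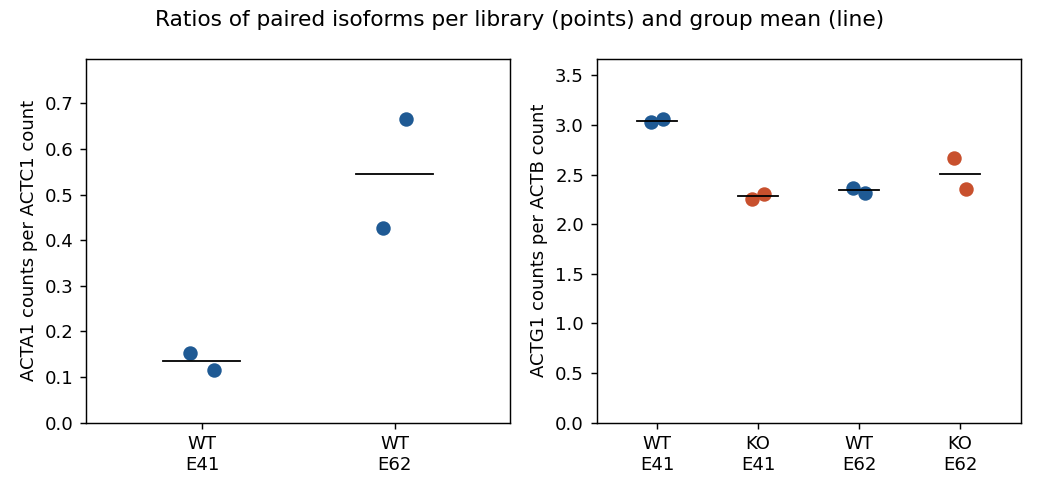
Left, ACTA1 counts per ACTC1 count in the WT libraries at each stage; right, ACTG1 counts per ACTB count in all groups, with 1 point per library and a line at the group mean. The left ratio is 0.115 to 0.154 at E41 and 0.427 to 0.665 at E62, and the right ratio is 3.03 and 3.06 in WT at E41 against 2.26 to 2.66 elsewhere.

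Smooth-muscle alpha actin ACTA2, which marks vascular smooth muscle and myofibroblasts and has been reported transiently in embryonic skeletal muscle of the rat, fell in KO at both stages. It had 20124 and 18783 counts in WT at E41 against 3091 and 3072 in KO, and 34084 and 30373 in WT at E62 against 8710 and 6946 in KO. In CPM these were 972 and 831 against 66.5 and 66.7, and 1025 and 894 against 128 and 116. The groups did not overlap. ACTA2 was 13.5-fold lower in KO at E41 (log2 change -3.76 ± 0.14, edgeR adjusted p = 1.3e-06) and 7.85-fold lower at E62 (-2.97 ± 0.13, adjusted p = 2.3e-06). Within KO it rose from E41 to E62 by 0.88 ± 0.12 (adjusted p = 0.0029), whereas in WT its change was 0.09 ± 0.12 (95% interval -0.19 to 0.37, adjusted p = 0.59).

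Smooth muscle markers were read beside ACTA2. Of 16 listed, 15 were found and tested: 2 were higher and 7 lower in KO at E41, with a median log2 change of -0.34. At E62, 4 were higher and 8 lower, with a median of -0.65. Over all genes tested, the medians were 0.09 and 0.06. Calls over all genes came to 18.5% higher and 20.8% lower at E41, and to 21.0% and 26.2% at E62. The smooth muscle markers summed to 2103 to 2192 CPM in WT and 499 to 523 in KO at E41. At E62 they summed to 5181 to 6697 CPM in WT and 466 to 483 in KO. Desmin (DES), a filament gene shared with skeletal muscle, made up 1088 ± 18.6 CPM of the sum in WT at E41 and 4074 ± 552 at E62 (SD, n = 2), and changed by -5.79 ± 0.26 and -9.32 ± 0.30 in KO (edgeR adjusted p = 3.8e-06 and 4.0e-07). CASQ2 and SYNPO2 were the next largest parts of the sum in WT, at 294 and 219 CPM at E41 and 668 and 413 CPM at E62. CASQ2 changed by -6.22 ± 0.57 and -7.48 ± 0.59 in KO (adjusted p = 0.00077 and 0.00029). SYNPO2 changed by -1.24 ± 0.28 and -3.99 ± 0.31 (adjusted p = 0.014 and 0.00012). MYH11, the myosin heavy chain of smooth muscle, behaved otherwise. Its log2 change was -0.17 ± 0.24 in KO at E41 (adjusted p = 0.60), and it rose by 1.23 ± 0.24 at E62 (adjusted p = 0.0046). The part of skeletal muscle in the sum of the smooth muscle markers was not tested.

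Set against single smooth muscle markers, ACTA2 gave different ratios. There were 64.9 and 59.3 ACTA2 counts per MYH11 count in WT at E41 and 112 and 59.8 at E62, against 5.21 and 5.16 in KO at E41 and 5.36 and 3.53 at E62. Per CNN1 count there were 19.7 and 20.1 ACTA2 counts in WT and 20.2 and 17.1 in KO at E41, and 18.5 and 4.83 in WT and 29.1 and 25.7 in KO at E62. The genotypes lay apart against MYH11 at both stages, with KO lower. Against CNN1 they overlapped at E41, and at E62 KO lay above WT, where the lowest ratio was that of WT E62 replicate 2. TAGLN, an actin-bundling protein of smooth muscle, changed by -1.06 ± 0.15 at E41 (edgeR adjusted p = 0.0015) and by 0.21 ± 0.15 at E62 (adjusted p = 0.29). CNN1, the smooth-muscle calponin, changed by -3.65 ± 0.61 and -4.75 ± 0.63 (adjusted p = 0.0072 and 0.0023). MYL9, a regulatory light chain, fell by 2.12 and 2.64 on the log2 scale (adjusted p = 0.00037 and 8.1e-05). ITGA8, an integrin of smooth muscle and mesenchyme, rose by 1.38 ± 0.18 and 3.11 ± 0.20 (adjusted p = 0.0012 and 2.3e-05). Pericyte markers, 10 found and 9 tested, had 2 higher and 2 lower at E41 and 2 higher and 4 lower at E62. Among all genes tested, 18.5% were higher and 20.8% lower at E41, and 21.0% and 26.2% at E62. The pericyte markers summed to 626 to 1129 CPM in WT and 666 to 939 CPM in KO. The part of skeletal muscle, smooth muscle or pericytes in the ACTA2 level was not tested. In WT, ACTA2 counts came to 11.7% and 9.09% of the striated counts at E41 and 7.09% and 4.77% at E62. Assignment of striated reads to ACTA2 was not tested either.

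Smooth-muscle gamma actin ACTG2 was scarce in every library. It had 93 and 72 counts in WT and 131 and 92 in KO at E41, and 145 and 156 in WT and 481 and 220 in KO at E62. This came to 4.49 and 3.18 CPM against 2.82 and 2.0 at E41, with no overlap, and to 4.36 and 4.59 CPM against 7.10 and 3.67 at E62, where the KO libraries lay on both sides of WT. The log2 change was -0.67 ± 0.37 at E41 (95% interval -1.53 to 0.19, edgeR adjusted p = 0.19) and 0.27 ± 0.36 at E62 (-0.56 to 1.09, adjusted p = 0.56), and the latter became -0.29 without KO E62 replicate 1. ACTA2 and ACTG2 thus differed in their response: ACTA2 counts per ACTG2 count ran from 195 to 261 in WT and from 18.1 to 33.4 in KO.

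Within KO, ACTG2 rose from E41 to E62 by 1.16 ± 0.36 (edgeR adjusted p = 0.045, 0.014 to 0.22 over alternatives). The call was lost without KO E62 replicate 1 (log2 change 0.61, adjusted p = 0.22), KO E41 replicate 1 (1.43, 0.11), KO E41 replicate 2 (0.93, 0.22), and WT E62 replicate 1 or 2 (1.20 and 0.062 for each), and with limma-voom, thinned counts and only the groups compared. ACTC1 changed the other way, by -1.19 ± 0.35 (adjusted p = 0.035, 0.0022 to 0.24 over alternatives), at a level of at most 38 counts. It kept its call when KO E62 replicate 1 was left out and lost it without each other library (KO E41 replicate 1, 0.24, and KO E41 replicate 2, 0.059; KO E62 replicate 2, 0.13; WT E41 replicates, 0.054 each; WT E62 replicates, 0.051 and 0.05), with the replicate number as a block (0.057), and with limma-voom, thinned counts and only the groups compared. ACTA2, ACTG2 and ACTC1 were the 3 of 6 isoforms called with stage in KO, 2 higher and 1 lower, where 30.1% of all genes were called, 12.1% higher and 18.0% lower.

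**Figure D4:**
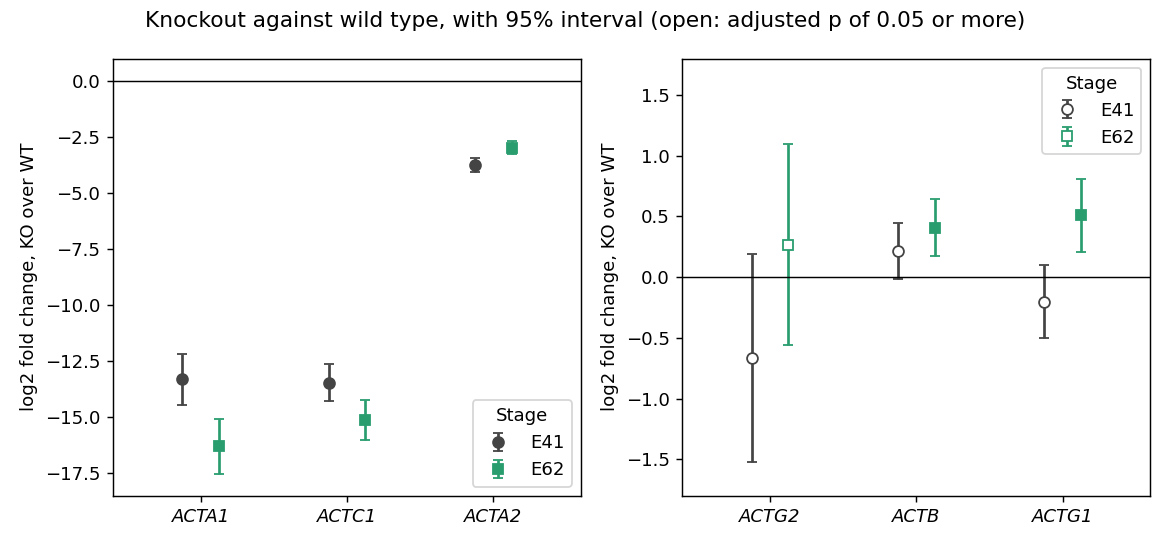
log2 fold change of each isoform in KO over WT (vertical axis) at E41 (circles) and E62 (squares), with 95% intervals from edgeR; filled symbols passed the adjusted p threshold of 0.05. The striated isoforms lie between -13.32 and -16.30, ACTA2 at -3.76 and -2.97, and the 3 other isoforms between -0.67 and 0.51.

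Cytoplasmic beta actin ACTB, a frequent reference gene in expression work, had 1051 and 1091 CPM in WT and 1260 and 1226 CPM in KO at E41. At E62 it had 773 and 772 CPM in WT and 1047 and 999.9 CPM in KO. KO libraries lay above WT at both stages, by margins far smaller than those of the muscle isoforms. The log2 change was 0.21 ± 0.10 at E41 (95% interval -0.02 to 0.45, edgeR adjusted p = 0.13, 0.0062 to 0.38 over alternatives), and it passed with DESeq2 (0.016) and with library size as the only scaling (0.50, adjusted p = 0.0062). At E62 ACTB rose by 0.41 ± 0.10 in KO (adjusted p = 0.013, at most 0.060 over alternatives). This call was lost without WT E62 replicate 1 (0.051) and when the fit held only the groups compared (0.060).

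Cytoplasmic gamma actin ACTG1 had 3180 and 3337 CPM in WT and 2842 and 2824 CPM in KO at E41. At E62 it had 1828 and 1788 CPM in WT and 2787 and 2355 CPM in KO. KO libraries lay below WT at E41 and above WT at E62. The log2 change at E41 was -0.20 ± 0.13 (95% interval -0.50 to 0.10, edgeR adjusted p = 0.25) and became 0.087 with library size alone. At E62 ACTG1 rose by 0.51 ± 0.13 (adjusted p = 0.014, 1.0e-06 to 0.064 over alternatives). The call at E62 was lost without WT E62 replicate 1 (0.052), WT E62 replicate 2 (0.055) or KO E62 replicate 1 (0.064), and in the fit of only the groups compared (0.064).

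In WT both cytoplasmic isoforms fell from E41 to E62. ACTG1 fell by 0.85 ± 0.13 on the log2 scale (edgeR adjusted p = 0.0022) and ACTB by 0.47 ± 0.10 (adjusted p = 0.0087, at most 0.059 over alternatives). The ACTB call was lost without WT E41 replicate 2 (0.056), WT E62 replicate 1 (0.055) or WT E62 replicate 2 (0.059). In KO the changes with stage were -0.14 ± 0.13 for ACTG1 (95% interval -0.44 to 0.16, adjusted p = 0.43) and -0.28 ± 0.10 for ACTB (-0.52 to -0.05, adjusted p = 0.071). The interval for ACTB leaves out 0 because it is not adjusted for the number of genes, and ACTB passed with DESeq2 (0.011) and limma-voom (0.047), in a range of 0.011 to 0.29 over alternatives.

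The balance within the cytoplasmic pair, which no scaling can move, set WT at E41 apart. ACTG1 counts per ACTB count were 3.03 and 3.06 in WT at E41, 2.26 and 2.30 in KO at E41, 2.36 and 2.32 in WT at E62, and 2.66 and 2.36 in KO at E62. WT at E41 did not overlap with any other group, whereas KO at E62 overlapped with WT at E62. WT E41 is also the group whose library names carry another limb code than the rest, and the limb cannot be told apart from the group.

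The effect of the knockout differed between stages for 3 of the 6 isoforms, 2 higher and 1 lower, where 26.8% of all genes did, 11.2% higher and 15.5% lower. The log2 effect was further below 0 at E62 than at E41 for ACTC1, by -1.67 ± 0.41 (edgeR adjusted p = 0.020, 3.5e-05 to 0.11 over alternatives). It was less far below 0 at E62 for ACTA2, by 0.78 ± 0.17 (adjusted p = 0.014, 6.5e-05 to 0.063). For ACTG1 it was 0.71 ± 0.18 higher at E62 (adjusted p = 0.025, 6.5e-06 to 0.10). The difference for ACTA1 was -2.98 ± 0.95 (95% interval -5.21 to -0.75) and did not pass (adjusted p = 0.056, 0.00073 to 0.22). It passed without WT E62 replicate 1 (0.016) or WT E62 replicate 2 (0.031), with DESeq2 (0.00073) and with library size alone (0.049). ACTB and ACTG2 gave 0.19 ± 0.14 (-0.14 to 0.52) and 0.94 ± 0.51 (-0.25 to 2.13), neither of which passed (adjusted p = 0.36 and 0.21). The ACTC1 call was lost without WT E41 replicate 1 (0.053) or KO E41 replicate 1 (0.11) and with limma-voom (0.058). That of ACTA2 was lost without WT E41 replicate 1 (0.052), KO E41 replicate 1 (0.063), KO E41 replicate 2 (0.060) or WT E62 replicate 2 (0.051). That of ACTG1 held without KO E62 replicate 2 and was lost without each other library: 0.058 and 0.066 without the first or second of WT E41, 0.10 without either of KO E41, 0.062 and 0.067 without the first or second of WT E62, and 0.058 without the first of KO E62.

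Apart from the isoforms themselves, the genes closest in pattern were those whose centred log2 CPM had the smallest root mean square difference from the isoform over the 8 libraries. Nearest to ACTA1 were the myosin light chains MYL1 (difference 0.87), MYL2 (0.87) and MYL11 (0.90), and nearest to ACTC1 were MYL2 (0.73), the muscle differentiation factor MYOG (0.78) and MYL11 (0.84). ACTA1 and ACTC1 differed from each other by 0.78, and each from ACTA2 by more than 5 (5.52 and 5.47). Nearest to ACTA2 were HCLS1, a cortactin-like protein that binds actin (0.24), SPSB4 (0.30) and the actin-binding LIM protein ABLIM3 (0.35). ACTG2 had HSPA12A (0.21), TIGAR (0.24) and DCHS2 (0.24) nearest to it. ACTB had the membrane carrier SCAMP2 (0.06), ZMYM3 (0.06) and the chromatin remodelling subunit SMARCD2 (0.06), and ACTG1 had the peroxiredoxin PRDX5 (0.03), the histone H2AJ (0.05) and the histone variant MACROH2A1 (0.07). ACTB and ACTG1 differed from each other by 0.17. These distances describe 4 groups of libraries, and a flat gene lies near any other flat gene.

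**Figure D5:**
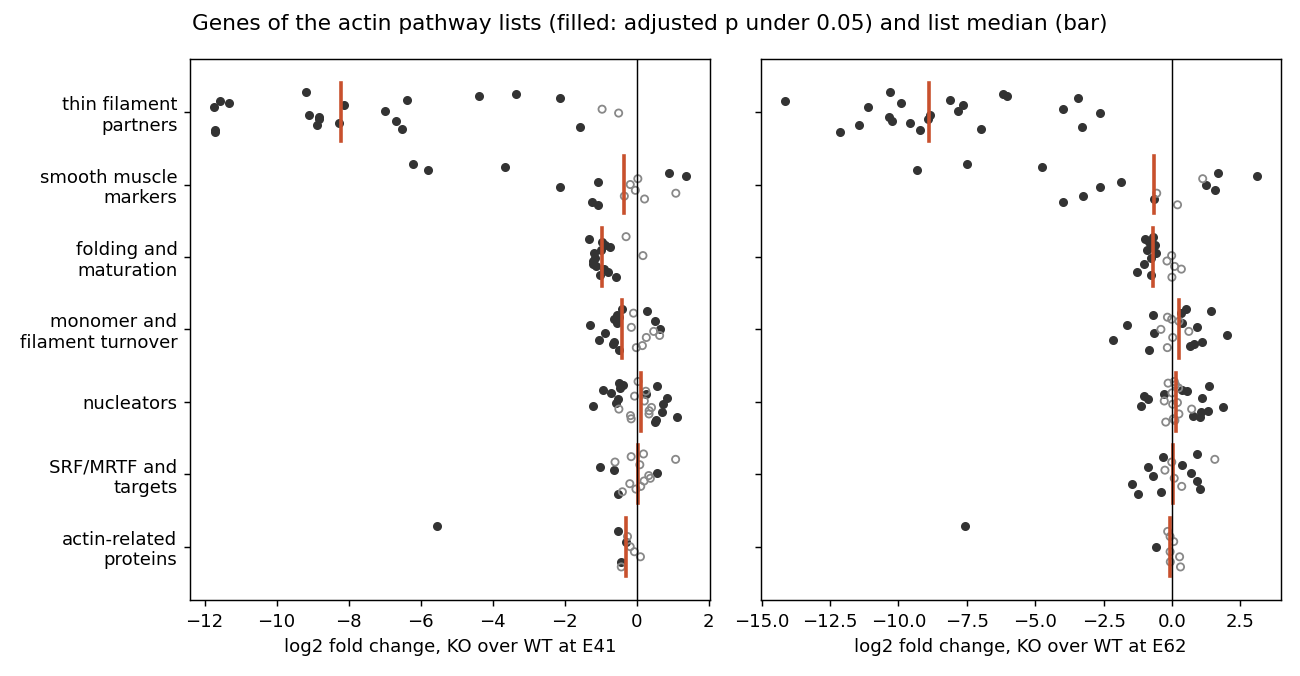
log2 fold change in KO over WT at E41 (left) and E62 (right) of every tested gene in 7 lists, filled where edgeR's adjusted p was under 0.05, with a bar at the list median; genes with 0 counts in KO, such as ACTBL2, are drawn at a fitted value that depends on the prior count. Thin filament partners have medians of -8.20 and -8.89, and the other lists stay between -0.97 and 0.26.

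Thin filament partners of muscle actin fell with it. Of 24 listed genes, 22 were tested: 20 were lower and 0 higher in KO at E41 (2 missed the threshold), and 22 were lower at E62. The median log2 changes were -8.20 and -8.89. Over all genes tested, 20.8% were lower at E41 and 26.2% at E62. KLHL41, which stabilises sarcomere proteins, changed by -11.57 ± 0.29 at E41 and -14.17 ± 0.32 at E62 (edgeR adjusted p = 1.8e-07 and 7.6e-08). Its relative KLHL40 changed by -6.38 ± 0.13 and -8.10 ± 0.14 (adjusted p = 9.4e-08 and 3.9e-08). The Z-disc crosslinker ACTN2 changed by -9.19 ± 0.20 and -10.30 ± 0.21 (adjusted p = 1.2e-07 and 5.1e-08). All 8 skeletal muscle markers were lower at both stages, among them MYL11 at -14.71 ± 0.26 and -13.89 ± 0.24 (adjusted p = 9.3e-08 and 3.9e-08).

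Genes that fold and modify actin were lower at smaller scale. Nascent actin passes through prefoldin and the CCT chaperonin ring before it can polymerise. Of 18 listed genes, 16 were tested: 14 were lower and 0 higher in KO at E41, with a median of -0.97. At E62, 11 were lower and 0 higher, with a median of -0.67. Over all genes tested, 20.8% were lower at E41 and 26.2% at E62. CCT2, a chaperonin subunit, fell from 483 ± 2.77 to 194 ± 5.88 CPM at E41 (SD, n = 2; log2 change -1.32 ± 0.12, edgeR adjusted p = 0.00018) and by 0.97 on the log2 scale at E62 (adjusted p = 0.00042). Its cochaperone PDCL3 changed by -1.16 ± 0.10 and -0.77 ± 0.09 (adjusted p = 0.00013 and 0.00046). SETD3, the histidine methyltransferase of actin, changed by -0.81 ± 0.09 and -1.28 ± 0.09 (adjusted p = 0.00054 and 3.2e-05). In WT, 11 of these 16 genes fell from E41 to E62 and 0 rose, where 39.8% of all genes changed with stage and 19.8% rose.

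Regulators of actin turnover held members that were higher and members that were lower in KO. Of 21 tested genes, 3 were higher and 11 lower in KO at E41 (median -0.39), and 9 were higher and 5 lower at E62 (median 0.26). Over all genes tested, 18.5% were higher and 20.8% lower at E41, and 21.0% and 26.2% at E62. The knockout effect differed between stages for 9 of the 21, higher at E62 for 7 and lower for 2, where 26.8% of all genes differed. DSTN, a filament-severing protein of the cofilin family, fell at both stages (-1.29 ± 0.17 and -1.65 ± 0.17, edgeR adjusted p = 0.0011 and 0.00022), and so did SSH2, a phosphatase that activates cofilins (-1.05 ± 0.16 and -2.16 ± 0.16, adjusted p = 0.0017 and 3.5e-05). The capping protein CAPG rose, by 0.29 ± 0.10 and 1.44 ± 0.10 (adjusted p = 0.046 and 2.5e-05). The thymosins TMSB4X and TMSB10, which hold monomers in reserve and were chosen here after their values were seen, fell at E41 by 0.66 and 0.62 on the log2 scale (adjusted p = 0.0018 and 0.013) and rose at E62 by 0.82 ± 0.10 and 1.10 ± 0.15 (adjusted p = 0.00044 and 0.00076).

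Nucleators, which start new filaments, moved both ways. Of 26 tested, 8 were higher and 8 lower at E41 (median 0.13), and 9 were higher and 4 lower at E62 (median 0.17). Among all 17020 genes tested, the calls at E41 came to 18.5% higher and 20.8% lower, and those at E62 to 21.0% and 26.2%. ARPC1B, a subunit of the branching complex ARP2/3, rose by 0.56 ± 0.09 and 1.35 ± 0.09 (edgeR adjusted p = 0.0025 and 2.3e-05). The formins FMNL2 (0.71 ± 0.11 and 1.08 ± 0.11, adjusted p = 0.0021 and 0.0002) and DAAM2 (0.86 ± 0.12 and 1.11 ± 0.12, adjusted p = 0.0011 and 0.00022) also rose.

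SRF, the serum response factor, with its actin-sensing cofactors of the MRTF family, drives many actin and cytoskeletal genes. Of 16 tested genes of that list, 1 was higher and 3 lower at E41 (median 0.04), and 5 were higher and 6 lower at E62 (median 0.04), where 39.2% and 47.2% of all genes were called in either direction. SRF itself changed by -0.19 ± 0.10 at E41 (edgeR adjusted p = 0.16) and fell at E62 from 60.4 ± 2.20 to 21.9 ± 0.198 CPM (SD, n = 2; log2 change -1.46 ± 0.10, adjusted p = 2.0e-05). ZYX, a focal adhesion protein, fell at both stages (-0.50 ± 0.13 and -1.24 ± 0.13, adjusted p = 0.018 and 0.00023). The nonmuscle crosslinker ACTN1 changed by 0.19 ± 0.10 at E41 (adjusted p = 0.17) and rose by 0.91 ± 0.10 at E62 (adjusted p = 0.0003).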

How the data were processed

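Bulk RNA of limb muscle was sequenced in 8 libraries, with groups and replicate numbers from the sample titles. The authors deposited 1 table of estimated counts (expected counts) per gene, whole numbers that are not normalized. The submitters' processing notes name kallisto, DESeq2, Sscrofa11.1 and susScr11 without versions or roles; the sources used here do not give the annotation release or filters. Such estimates split reads between transcripts of like sequence, so actin values are uncertain where isoforms share sequence. Symbols were found for 15527 of 22516 identifiers.

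Counts were rounded, filtered (filterByExpr, minimum count 10), TMM-scaled and tested with edgeR 4.0.16 in R 4.3.3, using group means, a robust quasi-likelihood F test with 4 residual degrees of freedom, two-sided, Benjamini-Hochberg adjusted over 17020 genes. Standard errors are the change over the square root of F. Intervals of count ratios are Clopper-Pearson and cover counting error only. Alternatives were DESeq2 1.42.0, limma-voom 3.58.1, other scalings, filters and fits, thinned counts, and each library left out. On simulated data for KO against WT at E41 (16695 genes), 24, 42, 47 and 48 of 50 genes changed 2-, 4-, 8- and 16-fold were recovered, with 12 calls among unchanged genes. Only 200 genes were changed there, in random directions. The simulation therefore did not test the scaling or false calls under losses as wide and large as those in KO. No replicate pair agreed within sampling noise (chi-square over its degrees of freedom, 33.7 to 74.1).

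The isoforms and the 12 gene lists were chosen with earlier results of these data known. Genes named are the isoforms, the 3 nearest in pattern to each among genes with a symbol and at least 2 CPM on average, up to 3 per list with the smallest p, and defining markers. TMSB4X, TMSB10, TNNI3, TBX20, CASQ2 and SYNPO2 were named outside that rule, after their values were seen.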

Additional observations from a re-analysis of the deposited data

Results flagged for a closer look

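The knockout effect on 3 of the 6 isoforms differed between E41 and E62 by the test of that difference (edgeR), where 26.8% of all genes did. None of these 3 calls held in every alternative. For ACTC1 the difference of the log2 effects, E62 less E41, was -1.67. For ACTA2 it was 0.78 and for ACTG1 0.71. ACTG1 was the isoform whose KO libraries lay below WT at E41 and above WT at E62. The causes were not tested.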

How the results depend on the processing

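Each call of ACTA1, ACTC1 and ACTA2 between genotypes, of ACTA1 and ACTG1 with stage in WT and of ACTA2 with stage in KO held in all 18 alternatives run for it. The isoform shares moved by less than 1 SD when the CPM of a group was pooled. That outcome was fixed in advance. With 2 libraries, a pooled share lies between their shares and so within 1 SD of the mean. With 1 library of a group left out, the ACTA1 share was 23.9% or 33.7% in WT E62, and in KO E62 0.0026% without replicate 2 and 0.00096% without replicate 1. Division by transcript length was not run, since no lengths were given. With DESeq2, ACTB at E41 (0.22) and with stage in KO (-0.23), ACTC1 with stage in WT (0.48) and the stage difference of ACTA1 (-2.96) became called, as did ACTC1 in WT (0.48) and ACTB in KO (-0.28) with limma-voom. Limma-voom lost the stage difference of ACTC1 (-1.70) and the changes with stage in KO of ACTC1 (-1.23) and ACTG2 (1.13). Fits of only the groups compared lost ACTB (0.41) and ACTG1 (0.51) at E62 and ACTC1 (-1.16) and ACTG2 (1.21) in KO, and thinning lost the last pair (-1.08 and 1.06). With library size alone, ACTB at E41 (0.50) and the stage difference of ACTA1 (-2.97) became called, ACTG1 at E41 turned to 0.087, and summed actin was 12422 CPM in WT E41, 4512 in KO E41 and 4201 in KO E62. That scaling moved the median of all genes at E41 from 0.09 to 0.38 and the share of calls that were higher from 47.1% to 73.6%, and at E62 from 0.06 to 0.36 and from 44.5% to 69.4%. The cause of these changes was not tested.

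Leaving out 1 library moved log2 values of ACTG2 at E62 over -0.29 to 0.66, ACTB at E62 over 0.37 to 0.44 and ACTG1 at E62 over 0.38 to 0.62. Stage differences ran over -3.98 to -2.45 for ACTA1, -2.22 to -1.30 for ACTC1, 0.63 to 0.88 for ACTA2 and 0.58 to 0.83 for ACTG1. With stage, ACTB in WT ran over -0.47 to -0.39, and in KO ACTA1 over -1.45 to 0.083, ACTC1 over -1.75 to -0.82 and ACTG2 over 0.61 to 1.56. ACTA1 in KO turned positive without KO E62 replicate 2. Counts of genes called fell from 6678 to 3937 and 4098 at E41 without KO E41 replicate 1 or 2 (up to 6742), from 4553 to 2507 and 2698 for the difference between stages without the same libraries (up to 4307), and from 5126 to 1921 and 2226 with stage in KO without them and 2967 without KO E62 replicate 2 (up to 5075).

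Same-numbered libraries did not deviate together (r of deviations -0.12 to 0.08 between groups), so the number was not taken as a pairing. With the replicate number as a block, 6114 genes were called at E41, 7512 at E62, 3851 for the difference, 6109 in WT and 4436 in KO, and ACTC1 in KO (-1.20) lost its call. Depth limits ACTA1 and ACTC1 in KO, at 2 to 38 counts a library.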

Other observations

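ACTBL2, a beta-actin-like gene outside the 6 isoforms, had 3 and 3 counts in WT at E41 and 14 and 24 at E62, and 0 in all 4 KO libraries. Taking 3 counts per KO group as the floor and the WT counts as exact, it was at least 4.27-fold lower in KO on day 41, and on day 62 at least 24.1-fold lower. Counting error in WT is not covered by these values. Among 15 actin-related genes found, 9 were tested, of which 4 were lower at E41 and 2 at E62, and 0 were higher at either stage. Over all genes tested, 20.8% were lower and 18.5% higher at E41, and 26.2% and 21.0% at E62. ACTL6A, a chromatin remodelling subunit, fell at E41 (log2 change -0.52 ± 0.08, edgeR adjusted p = 0.0025). ACTR1B, a dynactin subunit, fell at E62 (-0.58 ± 0.11, adjusted p = 0.0041). Of 8 epithelial and endothelial markers tested, 0 were called at E41 and 4 were higher at E62. Over all genes, 39.2% were called at E41 and 21.0% were higher at E62.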
